A study of Homo sapiens with 6 samples.

Results

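The pseudogenes of 3 genes for proteins of the large ribosomal subunit, RPL7, RPL21 and RPL23A, were followed on microarrays of Caco-2. This line from human colon carcinoma has features of enterocytes. A pseudogene was taken when the platform annotation gave its feature a single symbol made of a parent name, the letter P and a number, and, where a symbol had several features, that of the highest average over all 6 arrays was kept. This gave 205 pseudogenes among 33616 genes tested, 58 of RPL7, 57 of RPL21 and 90 of RPL23A. The gene table lists 61, 137 and 95 such symbols, so the array names nearly all of the RPL7 and RPL23A families and a smaller share of the RPL21 family. A further 3 features named such a pseudogene together with other symbols and were not analysed here. The feature of each pseudogene was thus chosen by its mean level, which is given as a description. Within a family, no difference between the groups entered the choice of members. The 3 families themselves were picked with earlier results of these arrays known, so their counts are a description of these 6 arrays.

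All cells were Caco-2. The first group is labelled NC, which the labels do not spell out, and the second is labelled apoM overexpression, with 3 arrays in each. ApoM, apolipoprotein M, is a lipocalin that rides on high-density lipoprotein and carries sphingosine-1-phosphate. The labels give neither the vector, the time after its introduction nor whether replicates came from separate cultures, so the spread behind each p-value is that of these 6 arrays and can be technical. The values of every array are on a log2 scale, and a difference of 1 is a doubling of signal. A value depends on a feature's own probes, so a higher value on one feature than on another does not show more RNA, and levels serve below only to order or group features by brightness.

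Processed pseudogenes arise when a mature mRNA is copied back into DNA by the LINE-1 reverse transcriptase and inserted elsewhere. The copy has no introns and lacks the parent's promoter, and most copies carry mutations that break the reading frame. Ribosomal protein mRNAs are abundant and short and have left many such copies in the human genome. The gene table does not say which of the 205 are processed copies, and 14 have an annotated span over 1000 bases. Because copies stay close to the parent in sequence, probes for a copy can bind the parent's RNA and that of other copies. The RNA behind the value of a single pseudogene is uncertain for this reason, and what share of each value came from the parent was not tested. In total RNA, fewer cells that make an RNA and less of it per cell cannot be told apart.

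The start of the RPL21 gene is shown because its part before the start site is not in the mRNA from which the copies were made. In RefSeq sequence of GRCh38.p14 it lies at chr13:27251458-27251567 on the plus strand, and the capitals mark the unbroken run of C and T that begins at the start site, base 101 of the stretch shown. The capitals and the letters after them are transcribed, so a full-length copy of the mRNA can carry them.
RPL21: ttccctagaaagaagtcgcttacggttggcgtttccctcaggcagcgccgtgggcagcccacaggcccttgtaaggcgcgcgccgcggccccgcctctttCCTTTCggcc
A transcript that opens with C and goes on with C or T is the 5′ terminal oligopyrimidine form, through which mTOR signalling controls the translation of ribosomal protein mRNAs. A C at the start site within a run of at least 5 C or T letters, read on the gene's own strand, was found in 60.3% of 78 promoters of cytosolic ribosomal protein genes and in 4.07% of 35116 promoters in all. The promoter table matched 1 of the 3 parents, RPL21.

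APOM, the gene overexpressed, was at 5.38, 5.84 and 6.41 in NC and at 15.49, 15.56 and 15.85 with apoM overexpression. The groups were far apart, and the difference was 9.76 (SE 0.25, limma adjusted p = 1.34e-07, with an exact two-sided permutation p of 0.1, the smallest that 3 arrays against 3 allow). Of 16 genes listed as marks of Caco-2, 15 were measured, and 13 of them lay above the median level, among them EPCAM, VIL1 and CDX2. Leukocyte markers, with CD3E and PTPRC among them, summed to 22.2 to 24.5 in NC and 22.7 to 23.4 with apoM, and none of the 4 measured passed the test, though 3 lay above the median level of all genes. None of the 4 fibroblast, 4 endothelial and 4 erythroid markers measured passed either. Median values of all features were 4.48 to 4.53 on the 6 arrays.

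The pseudogenes were higher with apoM overexpression in most cases. A value above that of NC was seen in 183 of 205 (89.3%, against 62.9% of all genes), and the median difference was 0.47 against 0.09 over all genes. By limma's moderated test with Benjamini-Hochberg adjustment over all 33616 genes, 23 of the 205 rose at an adjusted p under 0.05 and 0 fell, while 1.7% of all genes rose and 0.357% fell. At an unadjusted p under 0.05, 102 were higher, beside 14.3% of all genes, and 1 was lower. The 3 apoM arrays all lay above the 3 NC arrays in 94 pseudogenes, and all lay below them in 3, against 17.3% and 7.08% of all genes. The count of 23 depended on single arrays. With an NC array left out it was 3, 1 and 65 for replicates 1, 2 and 3, while 44, 8 and 2358 of all genes passed in either direction. With an apoM array left out it was 0, 1 and 6 for the same numbers, while 2, 17 and 235 of all genes passed, against 691 with all 6 arrays. The count over all genes thus moved with that of the pseudogenes.

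**Figure D1:**
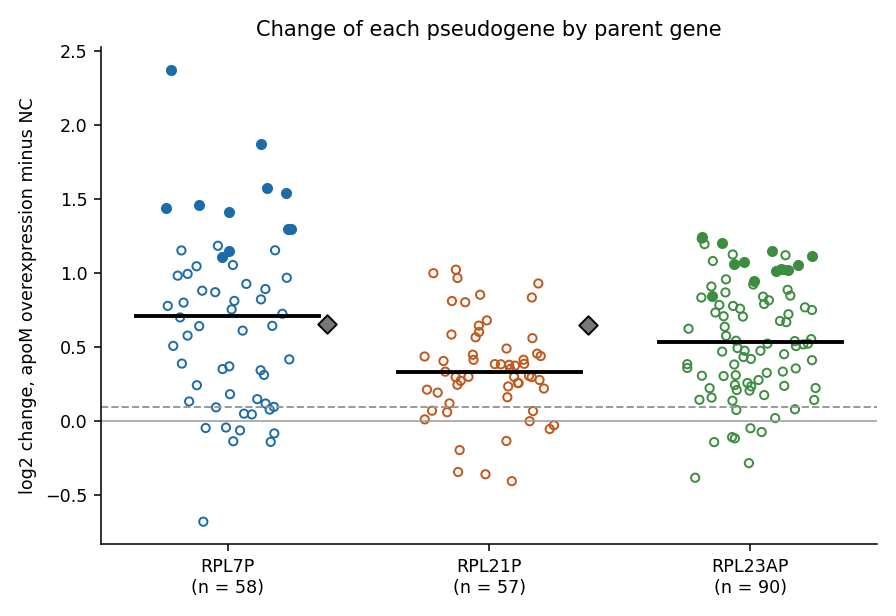
Log2 difference of every pseudogene, apoM overexpression minus NC, by parent gene. Filled points passed an adjusted p of 0.05, black bars are medians (0.71, 0.33 and 0.53), grey diamonds are the features read for RPL7 (0.65) and RPL21 (0.65), and the dashed line is the median of all genes (0.09). Filled points occur in the RPL7 and RPL23A families only.

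The families differed in their counts. In the RPL7 family 11 of 58 rose (19%) and the median difference was 0.71, with quartiles of 0.16 and 1.05. In the RPL23A family 12 of 90 rose (13.3%) around a median of 0.53. None of the 57 RPL21 pseudogenes rose. Their median was 0.33 and the smallest adjusted p was 0.0713, while 13 had an unadjusted p under 0.05. The groups were apart and higher with apoM in 32 RPL7 (55.2%), 50 RPL23A (55.6%) and 12 RPL21 pseudogenes (21.1%), beside 17.3% of all genes, so the RPL21 share was near that of all genes. A difference above 1 was seen in 16, 16 and 1 of them. Without NC replicate 3, 11 RPL21 pseudogenes rose and 1 fell, while 2358 of all genes passed in either direction. With all 6 arrays kept, 3 passed among genes above the median level, 2 with array weights and 5 at a threshold of 0.1. In these fits 1730, 1679 and 2327 of all genes passed, against 691 in the main fit. The count of 0 depends on these choices, as does the count over all genes. A difference between the families was not tested.

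On single arrays NC replicate 3 held the same place in each family. Each value was set against the average of its own gene. The median of the RPL7 pseudogenes on that scale was -0.47, -0.43 and -0.08 on the NC arrays, in the order of their numbers, and 0.21, 0.30 and 0.40 with apoM. For RPL23A the medians were -0.50, -0.33 and -0.08, then 0.21, 0.23 and 0.40. For RPL21 they were -0.25, -0.18 and 0.01, then 0.10, 0.17 and 0.23. In each family NC replicate 3 lay between the other NC arrays and the apoM arrays. It was the highest of the 3 NC arrays in 140 of 205 pseudogenes, and NC replicate 1 was the lowest of all 6 in 107. ApoM overexpression replicate 3 was the highest of all 6 in 92. NC replicate 3 held this place outside the 3 families too. The medians of cytosolic ribosomal protein genes were -0.77, -0.37 and 0.01, then 0.37, 0.44 and 0.23. For other ribosomal protein pseudogenes they were -0.41, -0.29 and 0.01, then 0.22, 0.18 and 0.30. Those of all genes had the same order within a narrower range, at -0.08, -0.07 and 0.002, then 0.05, 0.05 and 0.03.

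**Figure D2:**
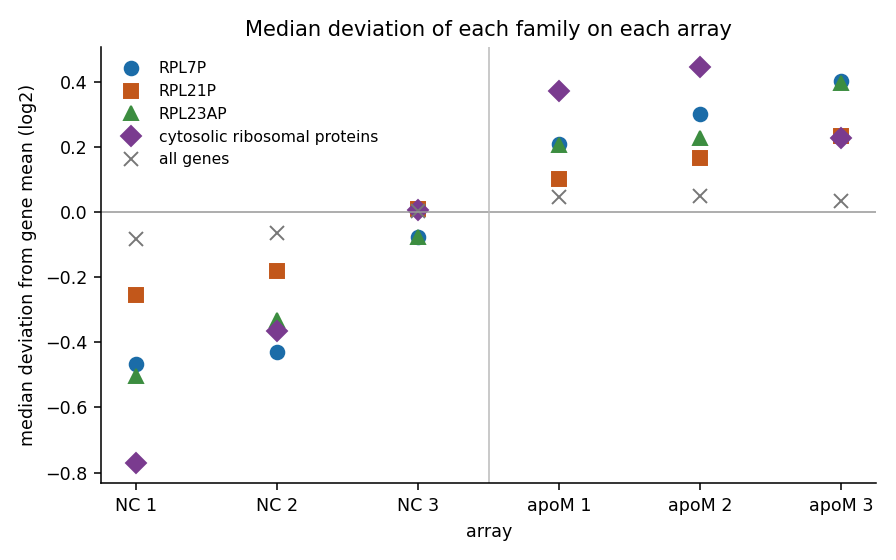
Median deviation from the gene mean (log2) on each of the 6 arrays, for the 3 pseudogene families, the 51 cytosolic ribosomal protein genes and all 33616 genes. All 3 families are below 0 on NC 1 and NC 2, near 0 on NC 3 and above 0 on the apoM arrays, with the RPL21 family nearest to 0.

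Of the parent genes, only RPL7 had a feature with its symbol alone that is named for its own chromosome. RPL7 encodes a protein of the large subunit that binds ribosomal RNA. On the feature named for chromosome 8, where the gene table places RPL7, it was at 17.57, 17.73 and 18.03 in NC and at 18.33, 18.50 and 18.46 with apoM. The groups did not overlap, and the difference of 0.65 (SE 0.17) missed the threshold (adjusted p = 0.0717). The brightest feature of the table reached 19.93, so this feature lay close to the top of the scale. A second feature with the symbol RPL7, named for chromosome 1, was at 13.07, 12.78 and 13.56 in NC and at 15.32, 15.02 and 14.96 with apoM, a difference of 1.97. Its name places it away from the RPL7 gene.

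RPL21 is a structural protein of the large subunit. The gene table places its gene on chromosome 13, but the 2 features that carry the symbol RPL21 alone are named for chromosomes 10 and 7, so what they read is as uncertain as for the pseudogenes. The chromosome 10 feature was at 15.78, 16.25 and 16.78 in NC and at 16.93, 16.87 and 16.97 with apoM. The groups did not overlap but NC replicate 3 came within 0.09 of the nearest apoM array, and the difference of 0.65 (SE 0.23) missed the threshold (adjusted p = 0.162). On the chromosome 7 feature the difference was 0.76. RPL23A, which sits at the exit of the peptide tunnel, was named only on a feature with several symbols and was not analysed here. In their own fits, 30 of 58 RPL7 pseudogenes had a larger difference than the chromosome 8 feature of RPL7, and 9 of 57 RPL21 pseudogenes a larger one than the feature read for RPL21.

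Among the RPL7 pseudogenes, RPL7P47 had the largest difference of the 205. It was at 12.42, 13.18 and 13.77 in NC and at 15.41, 15.63 and 15.45 with apoM. The lowest apoM array stood well above the highest NC array, and the NC arrays were spread more widely (SD 0.67, n = 3) than the apoM arrays (SD 0.12, n = 3). The difference was 2.38 (SE 0.29, adjusted p = 0.0127), or 5.19-fold. A second feature of RPL7P47 was at 9.41, 9.06 and 9.88 in NC and at 10.81, 10.65 and 11.19 with apoM, a difference of 1.44 in the same direction. The call held in 3 of the 6 fits that left out an array.

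RPL7P2 was the pseudogene whose call held most often. It was at 6.81, 7.25 and 6.86 in NC and at 8.89, 8.80 and 8.84 with apoM. Here NC replicate 3 lay with the other NC arrays and the apoM arrays agreed within 0.09. The difference was 1.87 (SE 0.17, adjusted p = 0.0050), and the call held in 5 of the 6 fits that left out an array, with differences of 1.79 to 2.01. The annotated span of RPL7P2 on chromosome 20 is 330 bases, the shortest of its family.

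RPL7P19 followed the same form. It was at 9.62, 9.69 and 10.06 in NC and at 11.19, 11.17 and 11.33 with apoM. No NC array came within 1 of an apoM array, and the difference was 1.44 (SE 0.17, adjusted p = 0.0127). Its call held in 3 of the 6 fits.

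The other 8 RPL7 pseudogenes that rose were RPL7P6, RPL7P13, RPL7P36, RPL7P52, RPL7P33, RPL7P32, RPL7P1 and RPL7P25, with differences of 1.11 to 1.57 and adjusted p of 0.0319 to 0.0462. RPL7P6 was at 9.22, 9.18 and 10.50 in NC and at 10.96, 11.10 and 11.57 with apoM, and the gap from NC replicate 3 down to the rest of its group was wider than that up to the lowest apoM array. RPL7P1 was at 12.78, 13.26 and 13.59 in NC and at 14.36, 14.37 and 14.36 with apoM, so that its apoM arrays hardly differed. Each of these 8 held its call in 1 of the 6 fits that left out an array, the fit without NC replicate 3.

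RPL7 pseudogenes at the other end showed no rise. RPL7P21 was at 10.67, 10.72 and 10.69 in NC and at 10.67, 10.64 and 10.62 with apoM. Its apoM arrays lay just below those of NC, a difference of -0.05 (SE 0.14, adjusted p = 0.895). The gene table gives it a span of 14196 bases, which overlaps NR3C1, the glucocorticoid receptor gene. That span is longer than a copy of the mRNA alone. RPL7P14 was at 5.84, 6.21 and 6.05 in NC and at 5.15, 5.34 and 5.56 with apoM. It was lower on every apoM array, by 0.68 (SE 0.18), and missed the threshold (adjusted p = 0.0711). RPL7P16, RPL7P35 and RPL7P7 had differences of -0.14, -0.14 and -0.09 with overlapping groups. RPL7P58, the RPL7 pseudogene with the highest mean level, was at 14.93, 15.19 and 15.78 in NC and at 16.01, 16.29 and 16.27 with apoM. The groups were apart, and the difference of 0.89 (SE 0.22) missed the threshold (adjusted p = 0.0652).

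**Figure D3:**
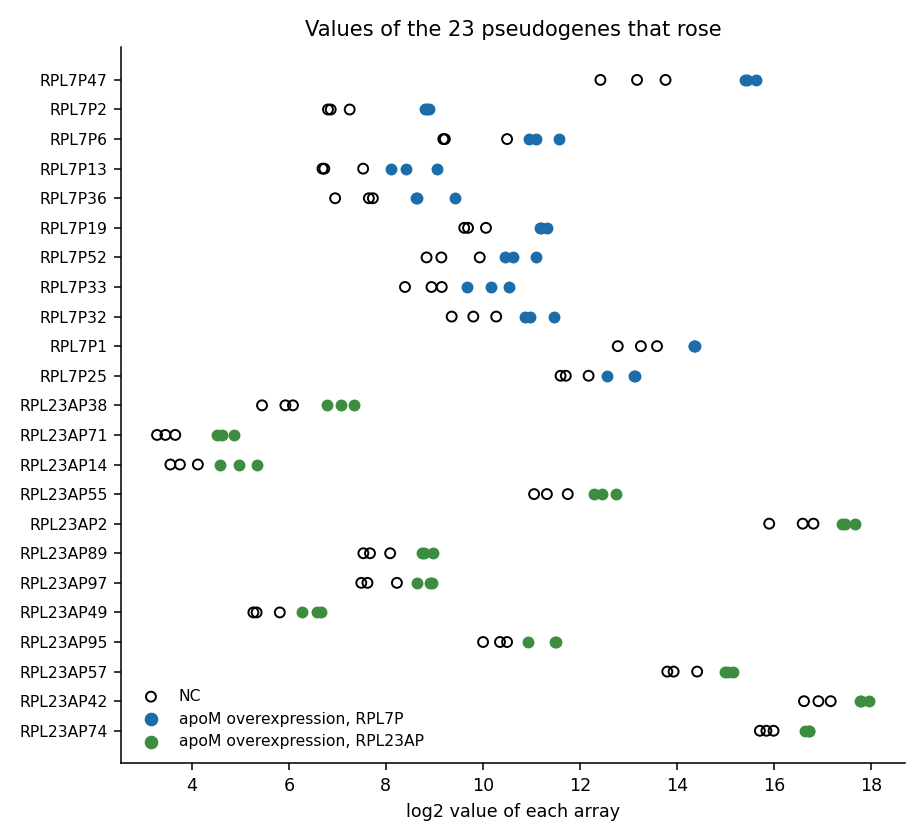
Log2 values of the 23 pseudogenes that rose, with the 3 NC arrays as open points and the 3 apoM overexpression arrays as filled points. In all 23 the filled points lie to the right of the open ones, and RPL7P47 has the widest gap.

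The 12 RPL23A pseudogenes that rose had smaller differences, from 0.84 to 1.25, and adjusted p of 0.0190 to 0.0490. RPL23AP71 had the smallest p of the family. It was at 3.28, 3.45 and 3.66 in NC and at 4.63, 4.51 and 4.87 with apoM. The groups were apart on a dim feature, and the difference was 1.20 (SE 0.17, adjusted p = 0.0190). RPL23AP38 was at 5.45, 5.93 and 6.08 in NC and at 7.33, 7.07 and 6.79 with apoM. The difference of 1.25 (SE 0.21, adjusted p = 0.0298) was the largest of the family. RPL23AP14, RPL23AP55, RPL23AP2, RPL23AP89, RPL23AP97, RPL23AP49, RPL23AP95 and RPL23AP57 had differences of 1.02 to 1.15.

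RPL23AP42, RPL23AP2 and RPL23AP74 were 3 features with high values that also rose. RPL23AP42 was at 16.62, 16.92 and 17.17 in NC and at 17.79, 17.97 and 17.79 with apoM, a difference of 0.95 (SE 0.18, adjusted p = 0.0347). RPL23AP2 was at 15.91, 16.60 and 16.82 in NC and at 17.46, 17.67 and 17.40 with apoM, a difference of 1.07 (SE 0.23, adjusted p = 0.0490). RPL23AP74 was at 15.71, 15.85 and 16.00 in NC and at 16.64, 16.72 and 16.72 with apoM, a difference of 0.84 (SE 0.15, adjusted p = 0.0324). All 3 had NC replicate 3 as the highest NC array and no overlap between groups. With quantile normalization these 3 missed the threshold, at differences of 0.73, 0.85 and 0.57 (adjusted p = 0.0503, 0.0611 and 0.0686). RPL23AP91 and RPL23AP43, with differences of 1.23 and 1.20, did not pass (adjusted p = 0.0526 and 0.0757). RPL23AP65, at 0.82, came as close (adjusted p = 0.0511).

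Of the RPL23A pseudogenes with a lower value, RPL23AP35 was at 5.89, 5.77 and 5.59 in NC and at 5.16, 5.28 and 5.65 with apoM. The groups overlapped, and the difference was -0.39 (SE 0.18, adjusted p = 0.279). RPL23AP36, RPL23AP92 and RPL23AP66 had differences of -0.29, -0.14 and -0.12. The 2 features of RPL23AP45 went opposite ways, at 0.49 and -0.19, and so did those of RPL23AP64, at -0.11 and 0.27. RPL23AP60 and RPL23AP84 are annotated on different features but had the same value on all 6 arrays, so the 205 pseudogenes hold 204 distinct profiles. Neither passed the test.

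The RPL21 pseudogenes had smaller differences. RPL21P131 had the largest difference and was at 6.21, 6.22 and 6.997 in NC and at 7.02, 7.53 and 7.95 with apoM. NC replicate 3 almost met the lowest apoM array, and the difference was 1.02 (SE 0.28, adjusted p = 0.0820). RPL21P7, RPL21P71 and RPL21P1 had differences of 0.999, 0.97 and 0.93 with adjusted p of 0.0818, 0.0752 and 0.0933. RPL21P119, the feature of the family with the highest mean level, was at 15.61, 16.40 and 16.80 in NC and at 16.83, 16.86 and 17.16 with apoM. Its NC arrays spanned more than its groups differed, by 0.68 (SE 0.27, adjusted p = 0.210).

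Several other RPL21 pseudogenes had NC replicate 3 above the lowest apoM array. RPL21P120 was at 9.51, 10.38 and 10.92 in NC and at 10.96, 10.74 and 10.92 with apoM, and the groups overlapped around a difference of 0.60 (adjusted p = 0.314). RPL21P11, RPL21P2 and RPL21P28 had differences of 0.81, 0.80 and 0.57 with overlapping groups. At the low end RPL21P123 was at 5.41, 5.57 and 4.59 in NC and at 4.83, 4.89 and 4.64 with apoM. Its NC replicate 3 was the lowest of all 6 arrays, and the difference was -0.41 (SE 0.25, adjusted p = 0.407). RPL21P10, with a difference of -0.36, was 1 of the 3 pseudogenes lower on all apoM arrays, beside RPL7P14 and RPL7P21.

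Differences were larger on brighter features. Of 79 pseudogenes with a mean log2 value under 5, 2 rose (2.53%) and the median difference was 0.27. In that range 0.199% of all genes rose around a median of 0.08. Of 74 between 5 and 8, 4 rose (5.41%) and the median was 0.53, beside 1.56% of all genes and a median of 0.10. Of 52 at 8 or above, 17 rose (32.7%) and the median was 0.89, beside 4.54% of all genes in that range and a median of 0.11. In that range 9 of 18 RPL7 pseudogenes rose around a median of 1.13, 8 of 25 RPL23A pseudogenes rose around 0.91, and 0 of 9 RPL21 pseudogenes rose around 0.60. In the same 9, the groups were apart and higher with apoM in 1 (11.1%), beside 28.8% of all genes in that range. Over the members of a family, Spearman's rho between the mean value and the difference was 0.59 for RPL7 (n = 58), 0.63 for RPL21 (n = 57) and 0.54 for RPL23A (n = 90), and 0.06 over all genes. The points share the 6 arrays and related probe sequences, and no test was made. A climb with brightness was also seen in 760 other ribosomal protein pseudogenes, with medians of 0.18, 0.44 and 0.79 over the same 3 ranges. For 659 pseudogenes of other abundant mRNAs the medians were 0.18, 0.28 and 0.35. Among the 52 features at 8 or above, 5 had a difference under 0.25, namely RPL7P21, RPL7P22, RPL7P49, RPL21P38 and RPL23AP53, a group chosen after their values were seen.

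**Figure D4:**
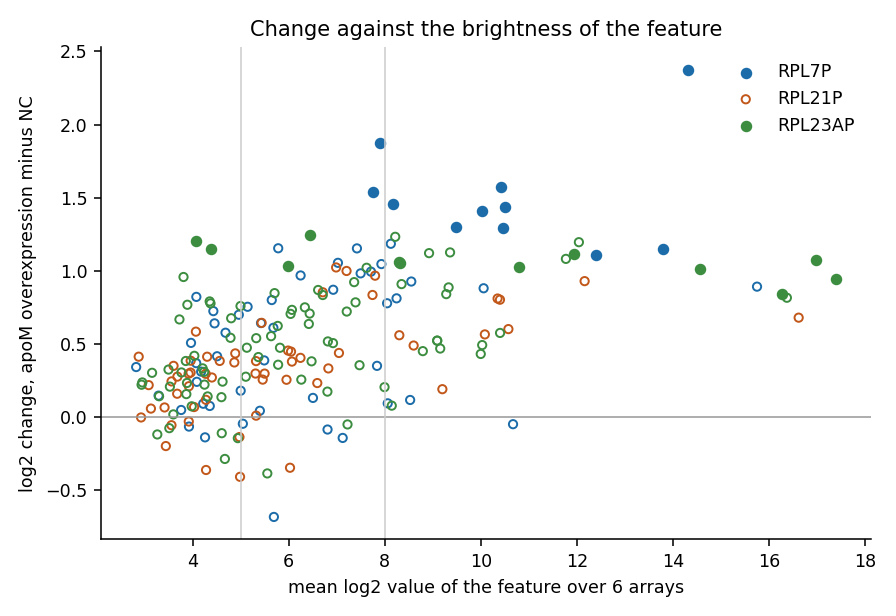
Log2 difference of each pseudogene (vertical axis) against the mean log2 value of its feature over 6 arrays (horizontal axis), with filled points for an adjusted p under 0.05 and grey lines at 5 and 8. Differences spread around 0.27 on the left and around 0.89 on the right, where RPL7P21 is the point nearest to 0.

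The pseudogenes are spread over many chromosomes, and distances between them were not taken. All 205 symbols were found in the GRCh38.p14 gene table, on 23 chromosomes, with no chromosome holding more than 21. The chromosome in the feature's name was that of the gene table for 207 of 209 features, and 2 features carry no position. The 23 that rose lie on 17 chromosomes. The median annotated span was 823 bases for RPL7, 553 for RPL21 and 526 for RPL23A pseudogenes. Of 191 with a span up to 1000 bases 23 rose, and of 14 with a longer one 0 rose (12 had a higher value, median difference 0.32). The table calls 8 of the 205 transcribed, and 0 of these rose, around a median of 0.19. Of all genes 1.7% rose, and groups of 14 and 8 are too small to read a count of 0 as a difference.

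Many of the pseudogenes overlap other genes. By gene table spans, 75 overlap a protein-coding gene, 26 another kind of gene and 104 none. Of these 10, 4 and 9 rose, with median differences of 0.30, 0.41 and 0.58, while 1.7% of all genes rose. The strand of the copy was not used. For 70 of the 75 the overlapped gene was tested as well. The median difference of those 70 pseudogenes was 0.30 and that of the overlapped genes -0.01. The pseudogene had the larger difference in 51 of 70. Of the overlapped genes 0 rose and 1 fell, beside 1.7% and 0.357% of all genes. Across the 70 pairs rho was -0.06, given as a description because the pairs share the arrays.

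**Figure D5:**
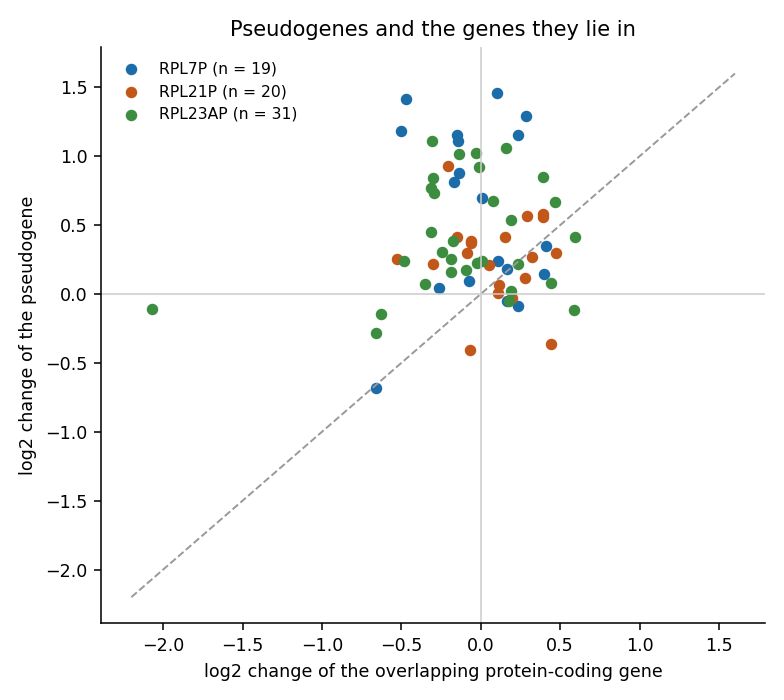
Log2 difference of 70 pseudogenes (vertical axis) against that of the protein-coding gene they overlap (horizontal axis), coloured by family, with a dashed line where both are equal. Points lie above the line in 51 of 70, and the point far to the left is RPL23AP64, which overlaps CENATAC.

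Some of these genes overlap more than 1 pseudogene or stand out by their own difference. The overlapped gene that fell was CENATAC, a component of the minor spliceosome, while RPL23AP64, which overlaps it, had a difference of -0.11. RERE overlaps both RPL7P7 and RPL7P11, which had differences of -0.09 and 1.15. NBEAL1 overlaps RPL7P14 and RPL23AP36, which had differences of -0.68 and -0.29, beside -0.66 for NBEAL1 itself (adjusted p = 0.214). RPL7P14, the pseudogene with the lowest difference, and NBEAL1 had like differences, and neither passed. This pair was picked after the values were seen, and a link between them was not tested.

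Other ribosomal protein genes and copies were set beside the 3 families. Of 51 measured cytosolic ribosomal protein genes 3 rose (5.88%) and 1 fell, around a median of 0.75. Among all genes 1.7% rose and 0.357% fell. All apoM arrays were higher in 43 (84.3%), against 17.3% of all genes. Of 760 other ribosomal protein pseudogenes 52 rose (6.84%) and 0 fell, around a median of 0.45. In the largest other family, 13 of 68 RPSA pseudogenes rose (19.1%), around a median of 0.34, and of 48 RPL12 pseudogenes 1 rose, around 0.48. RPSA and RPL12 encode proteins of the small and the large subunit. Of 43 other families with at least 5 measured members, 9 had a higher median than RPL7 pseudogenes, 14 than RPL23A and 32 than RPL21, over a range of -0.03 to 1.08. Families lay above and below the RPL7 family, and none of the 3 was tested against the rest. RPL7A is a different gene from RPL7 in spite of its name, and 0 of its 31 pseudogenes rose (median 0.52). The 11 pseudogenes of RPL7L1, an RPL7-like gene, had a median of -0.03 and 0 rose.

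Copies of other abundant mRNAs had a lower median. Of 659 pseudogenes of genes such as EEF1A1, GAPDH, PPIA and HNRNPA1, 5 rose (0.759%) and 0 fell, around a median of 0.26. At a mean value of 8 or above, 2 of 210 such pseudogenes rose around 0.35, and 37 of 226 other ribosomal protein pseudogenes rose around 0.79. These medians stand beside 0.89 for the 52 RPL7, RPL21 and RPL23A pseudogenes in that range.

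Among tested genes outside the 205, TUBA3E, RNU1-70P, RBMX2P1, EBLN1 and CAPZA1 lay nearest to the median pattern of the 205. Each value was again set against the average of its own gene. Root mean square differences were 0.03 to 0.04 on the log2 scale over the 6 arrays. TUBA3E, an alpha-tubulin gene, was at 6.92, 7.01 and 7.28 in NC and at 7.43, 7.52 and 7.69 with apoM. CAPZA1, a subunit of the actin capping protein, was at 13.26, 13.39 and 13.62 in NC and at 13.84, 13.97 and 13.98 with apoM. Both had NC replicate 3 as the highest NC array, which follows from how they were picked. None of the 5 passed the test.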

How the data were processed

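Biotin-labelled total RNA was hybridised to Affymetrix arrays, per the labels' protocols. The deposited log2 values, judged to be log2 from their range, were made in the Affymetrix Expression Console that the submitters' processing notes name. The program's version, its normalization, the genome build and any background measure are not stated there or in the labels, so no feature was called absent and no genome coordinates are given for features. The number of arrays, 3 per group, limits the precision.

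Of 135750 features, 36176 carry 1 gene symbol, 1119 carry several and 98455 are unnamed here. Features with several symbols gave no gene name. Of the 209 features of the pseudogenes 55 have a gene ID in the platform annotation and 154 have a symbol only, and 4 pseudogenes have more than 1 feature. Each gene was read on its feature with the highest mean. limma 3.58.1 in R 4.3.3 (lmFit, eBayes) compared apoM overexpression with NC over 33616 genes, two-sided, with Benjamini-Hochberg adjustment and a threshold of 0.05. The fit was tested on simulated data in which genes varied independently. It found 0 of 50 planted differences of 0.5, 20 of 50 of 1, 45 of 50 of 2 and 50 of 50 of 4. A pseudogene that did not pass can therefore still differ between the groups. No p-value was made over the pseudogenes alone. Gene spans, overlaps and promoters came from RefSeq tables of GRCh38.p14.

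The members, comparison lists and naming rule were chosen with earlier results of these data known. The rule named the parents, the 6 pseudogenes with the highest mean, the 4 largest and 4 smallest differences of each family, every pseudogene past the threshold, those whose features disagree in direction, the 2 largest other families, APOM and the 5 nearest genes. Alternatives covered normalization, filters, the choice of feature, the variance model, the replicate block and leaving out each array. Same-numbered arrays did not deviate together (correlations of -0.07, 0.03 and -0.07).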

Additional observations from a re-analysis of the deposited data

How the results depend on the processing

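The 3 family medians stayed above 0 under every alternative run, while the number of pseudogenes that rose, 23, did not hold its size. The count over all genes, 691 in both directions, moved too. The pseudogenes that rose numbered 52 among genes above the median level, 48 with array weights and 62 at a threshold of 0.1. In each of these fits 1 fell, and 1730, 1679 and 2327 genes passed in all. With a trended robust variance 34 rose (1251 genes in all). On features with a gene ID 3 of 55 rose (363 in all). With the replicate block 6 rose, all of RPL7 (50 in all), and when all features were tested 0 rose (2 in all). Leaving out each array gave 0 to 65. With quantile normalization 31 rose, 20 of them shared with the 23, and 879 genes passed in all. With array medians subtracted 22 rose, and 698 genes passed in all. The median of all genes was then 0.08 and 0.06. Among genes above the median level the family medians were 0.95 for RPL7, 0.47 for RPL21 and 0.73 for RPL23A pseudogenes. Leaving out each array gave 0.22 to 0.38 for RPL21. On features with a gene ID the groups were apart and higher with apoM in 21 of 55 pseudogenes. The share of all genes apart under that filter was not taken. RPL7 passed among genes above the median level (0.65, adjusted p = 0.0391), as the mean of its features (1.31, adjusted p = 0.0156), with a trended robust variance (0.65, adjusted p = 0.0351), with array weights (0.67, adjusted p = 0.0454) and without NC replicate 3 (0.78, adjusted p = 0.0295), and over the arrays left out ranged 0.55 to 0.78. RPL21 passed without NC replicate 3 (0.91, adjusted p = 0.0261), its range being 0.41 to 0.91. Of the pseudogenes named, 3 changed sign. Over all 205, the number with a higher value, 183, ranged from 175 to 184 over the arrays left out. RPL7P7 was at 0.010 with quantile normalization and ranged from -0.20 to 0.055 over the arrays left out. RPL7P35 ranged from -0.36 to 0.13 and RPL23AP92 from -0.28 to 0.019 over the same fits. The cause was not tested, except that fewer genes or arrays enter some fits. The low correlations of same-numbered arrays do not settle whether the replicate numbers pair the arrays, with only 3 per group. Background was not measured apart from signal, so a limit for dim features could not be set.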

Other observations

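Medians by position were also taken within each family. RPL7 pseudogenes overlapping no other gene had a median difference of 0.79 (32 pseudogenes, 5 rose). The median was 0.53 for those overlapping a protein-coding gene (20, of which 5 rose). It was 0.49 for those overlapping another kind of gene (6, of which 1 rose). For RPL23A the medians were 0.71 (44, 4 rose), 0.34 (34, 5 rose) and 0.47 (12, 3 rose). For RPL21 they were 0.38, 0.30 and 0.34 over 28, 21 and 8 pseudogenes, and none rose.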
